A study of Mus musculus with 8 samples.

Results

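The transcripts described here are those of 10 genes through which cells sense insulin and insulin-like growth factors (IGFs) and respond when these are scarce: INSR, IGF1R, IRS1, IRS2, FOXO1, FOXO3, FOXO4, TXNIP, IGFBP5 and PIK3R1. They were picked from the expression table by symbol, whatever the case of the letters. Of the 10, 8 were found among the 16974 genes listed, and all 8 were among the 11311 genes that were listed at every time point with a mean of at least 1 FPKM (fragments mapped to a gene, scaled to its transcript length and to the size of the library), which is the set tested. FOXO1 and TXNIP were not analysed here.

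The cells were Neuro2A (N2A), a mouse neuroblastoma line. All of them were first kept without serum for 16 h, in medium with bovine serum albumin. They then received either 2 µM HU210, a strong agonist of the cannabinoid receptor CB1R, or drug-free DMSO, and RNA was taken 2 h, 4 h, 6 h or 8 h later. This gave 8 libraries, 1 for each treatment and time point, and each library was made from RNA pooled over 2 to 3 independent experiments, so no comparison within 1 time point had a replicate check. N2A is 1 established line, all groups including DMSO were serum-starved, and no library of cells fed with serum was analysed here.

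Insulin and IGF1 bind receptor tyrosine kinases, encoded by Insr and Igf1r, which phosphorylate the adaptor proteins Irs1 and Irs2. These recruit PI3-kinase, whose regulatory subunit p85α comes from Pik3r1, and the lipid it makes activates the kinase Akt. Akt phosphorylates the FoxO transcription factors (Foxo1, Foxo3, Foxo4) and so keeps them out of the nucleus; when growth factors are withdrawn FoxO factors enter the nucleus, and in many cell types the genes for the receptors and for Irs2 are among their targets. Igfbp5 is a secreted protein that binds IGFs and alters their access to the receptor.

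The table was checked for the cells it should come from. Of 14 sympathetic neuroblastoma markers, 13 were listed and tested, with means over the 8 libraries of 123 FPKM for Chgb, 84.8 FPKM for Hand2 and 21.5 FPKM for Cnr1 (the gene for CB1R). The catecholamine enzymes on that list were low, Th at 2.00 FPKM and Dbh at 1.14 FPKM, below the glial marker Mbp at 4.33 FPKM, and Tubb3 was not analysed here. The 13 together summed to between 541 and 695 FPKM per library. The listed fibroblast markers summed to 2.17 to 2.45 FPKM, glial markers to 5.73 to 7.01 FPKM, immune markers to 0.27 to 0.614 FPKM, endothelial markers to 0.982 to 1.38 FPKM, and adipocyte and hepatocyte markers to 0.0242 to 0.0899 FPKM. The number of reads behind a value cannot be recovered from FPKM, so no counting error is given, and in bulk RNA fewer cells and less RNA per cell cannot be told apart.

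Both adaptor genes carried a sequence by which insulin-responsive genes are known, and their promoters are shown for that reason, beside that of Igf1r, whose level had the widest range over the libraries. Windows of 300 bases, from 250 before to 50 after the transcription start (RefSeq, GRCm38.p6), were found for 6 of the 8 genes, with 2 windows for Pik3r1. The core of the insulin response element, CAAAACA or its reverse complement TGTTTTG on the coding strand, occurred in the windows of Irs1 (111 and 32 bases before the start) and Irs2 (37 bases before the start), and in 6.28% of all 32851 promoter windows. The E-box CACGTG occurred in the same windows, 115 bases before the start in Irs1, where it overlaps the TGTTTTG, and 44 bases before it in Irs2; 7.15% of all windows hold it. The FoxO consensus GTAAACA, on either strand, was in 3.65% of all windows and in none of the 7 windows of these genes. The 150 bases before the start are given below, 5′ to 3′ on the coding strand, with TGTTTTG in capitals; a match is a description of the letters and not a bound site.
Irs1 chr1:82291440-82291589 (-): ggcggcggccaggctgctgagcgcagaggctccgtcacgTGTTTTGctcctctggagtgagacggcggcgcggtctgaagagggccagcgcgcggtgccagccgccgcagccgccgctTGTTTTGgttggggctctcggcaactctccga
Irs2 chr8:11008930-11009079 (-): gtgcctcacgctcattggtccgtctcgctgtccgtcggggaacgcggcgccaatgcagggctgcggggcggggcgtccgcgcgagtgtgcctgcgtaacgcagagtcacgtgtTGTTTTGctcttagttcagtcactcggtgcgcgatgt
Igf1r chr7:67952107-67952256 (+): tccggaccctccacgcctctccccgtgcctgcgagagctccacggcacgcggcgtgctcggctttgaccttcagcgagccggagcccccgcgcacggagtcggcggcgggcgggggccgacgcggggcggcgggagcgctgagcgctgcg

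All 8 genes lie on mm9, the build of the files, as protein-coding genes. On a per-length scale, the FPKM averaged over the 8 libraries, Irs2 was the most abundant at 41.4 ± 4.98 (SD over the 8 libraries, which differ in treatment and time), followed by Igfbp5 at 16.8 ± 1.54 and Igf1r at 14.9 ± 3.93. Foxo4 at 10.2 ± 0.752, Pik3r1 at 9.15 ± 1.76, Insr at 8.92 ± 1.43 and Foxo3 at 8.05 ± 1.3 lay close together, each within 1 SD of the next in that order, and Igfbp5 lay within 1 SD of Igf1r. Irs1, with 2.91 ± 0.429 FPKM, was the lowest, and its highest library (3.42 FPKM) was below the lowest library of every other gene, as the lowest Irs2 library (33.8 FPKM) was above the highest of every other gene. The median over all genes tested was 12.7 FPKM.

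**Figure D1:**
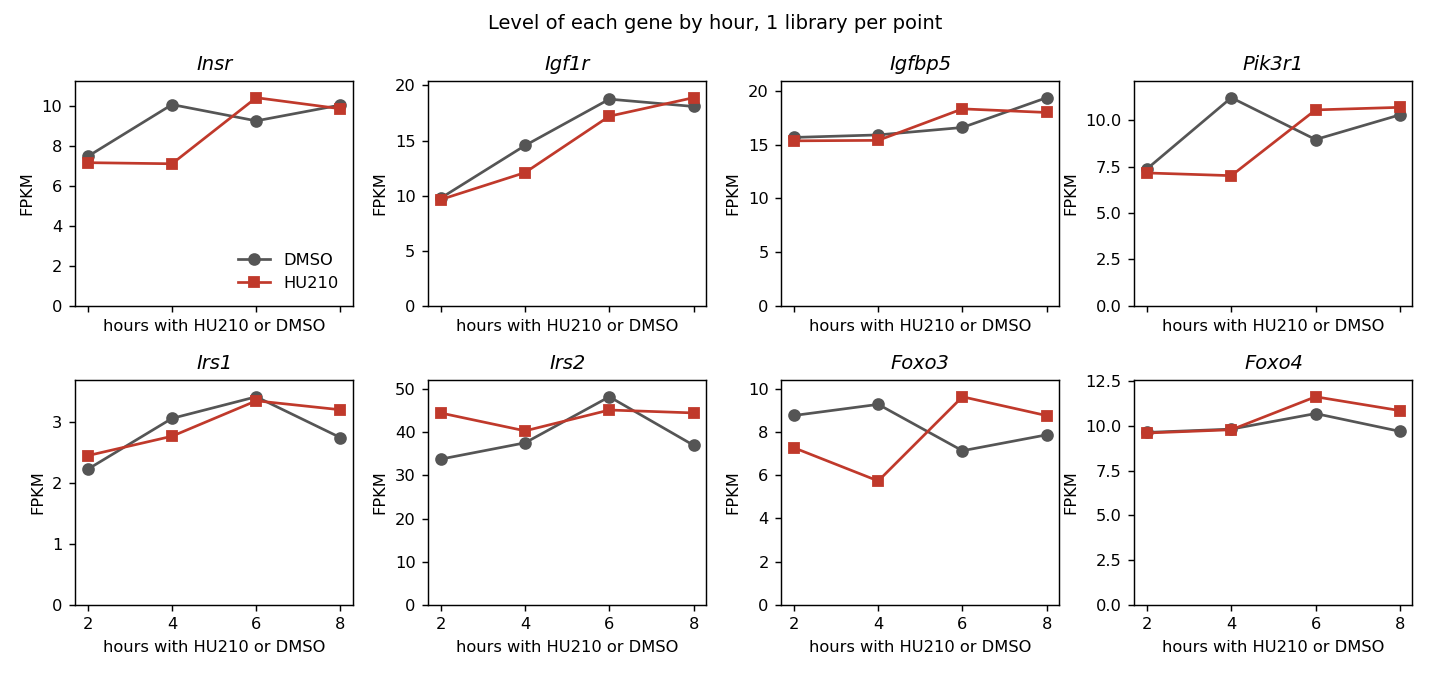
FPKM (vertical axes, from 0, a separate scale for each gene) against hours after HU210 (red squares) or DMSO (grey circles) was added, 1 library per point, with lines joining the libraries of a treatment. Igf1r goes from 9.64 and 9.78 FPKM at 2 h to 18.9 and 18.1 FPKM at 8 h in both treatments, and the lines of Insr, Pik3r1 and Foxo3 part at 4 h.

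Of the 8 genes, Igf1r, a receptor, had the widest range over the libraries, and its level differed by hour more than by treatment. Time cannot be told apart here from the order in which time points were prepared or sequenced. Igf1r (ENSMUSG00000005533, chromosome 7, 75097713 to 75371484, plus strand), the IGF1 receptor, measured 9.78, 14.6, 18.8 and 18.1 FPKM from 2 h to 8 h with DMSO. With HU210 it measured 9.64, 12.1, 17.2 and 18.9 FPKM at the same time points. Both 2 h libraries were the lowest, all 4 libraries of 6 h and 8 h were above all 4 of 2 h and 4 h, and the treatments overlapped throughout. The level at 8 h was 1.85-fold that at 2 h with DMSO and 1.96-fold with HU210. A linear trend over the hours, fitted by limma to log2(FPKM + 1) with treatment as a covariate, had a slope of 0.15 ± 0.022 log2 units per hour (SE; 95% interval 0.099 to 0.20).

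That slope ranked 1 of 11311 genes by p-value, yet it did not pass the threshold: its adjusted p was 0.201 in limma. No gene of the 11311 passed in that test (0% called), whereas 1318 had an unadjusted p under 0.05, of which 663 had an upward slope, 5.86% of all genes tested. By size, 21 genes (0.186%) had a steeper positive slope than Igf1r. Leaving out both 2 h libraries gave a slope of 0.11 with an adjusted p of 1 and rank 84, and over all alternative settings on the same scale the rank lay between 1 and 84.

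**Figure D2:**
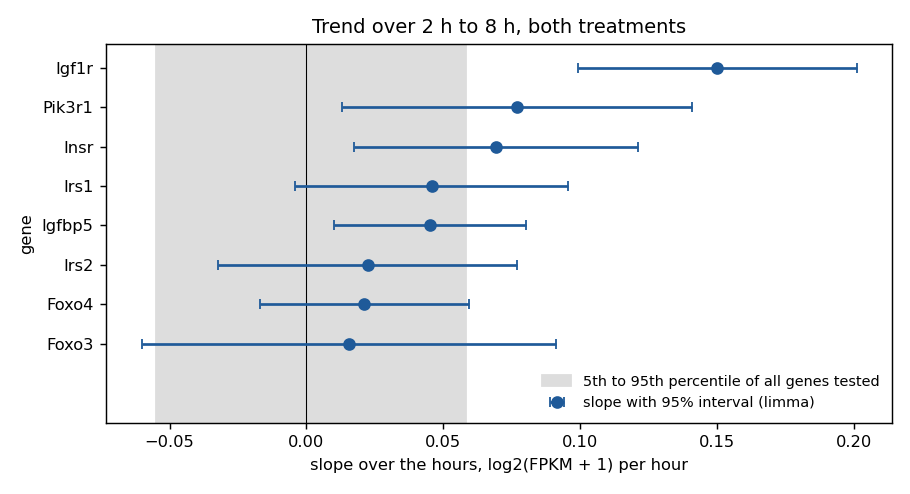
Slope of log2(FPKM + 1) per hour (horizontal axis) for each gene (vertical axis), fitted by limma over the 8 libraries, with 95% intervals, and in grey the range from the 5th to the 95th percentile of all genes tested. Igf1r, at 0.15, stands furthest to the right, and every point lies above 0.

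The slopes of the other 7 genes were smaller and none passed the test, and the 95% intervals of Irs1, Irs2, Foxo3 and Foxo4 included 0. All 8 estimates were above 0, beside 48.4% of all genes tested, and 7 of the 8 genes were higher at 8 h than at 2 h in both treatments, beside 33.2% of all genes. This count has no minimum difference: Irs2 with HU210 was at 44.5 FPKM at both time points, and Foxo4 with DMSO was at 9.64 and 9.70 FPKM. The exception was Foxo3, which was lower at 8 h with DMSO. The lowest of the 8 libraries was a 2 h library for 5 of the 8 genes, beside 23% of all genes. The 8 genes share the same 8 libraries, so these counts are a description.

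Insr (ENSMUSG00000005534, chromosome 8, 3150922 to 3279617, minus strand), the insulin receptor, measured 7.47, 10.1, 9.25 and 10.0 FPKM with DMSO from 2 h to 8 h. With HU210 it measured 7.16, 7.10, 10.4 and 9.86 FPKM. The 3 lowest libraries were both of 2 h and the HU210 library of 4 h, with a gap between these and the remaining 5. Its slope was 0.07 log2 units per hour (95% interval 0.017 to 0.12), with an adjusted p of 0.331 in limma.

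Pik3r1 (ENSMUSG00000041417, chromosome 13, 102450716 to 102538172, minus strand), the p85α subunit, had almost the same profile. It measured 7.38, 11.2, 8.95 and 10.3 FPKM with DMSO and 7.15, 7.01, 10.5 and 10.7 FPKM with HU210. Again the 2 h libraries and the HU210 library of 4 h were the 3 lowest. The slope was 0.08 (95% interval 0.013 to 0.14), with an adjusted p of 0.36 in limma. Over the 8 libraries log2(FPKM + 1) of Insr and Pik3r1 had a Pearson r of 0.98, the highest of any pair among the 8 genes, and 0.97 after correction for GC content and transcript length; the libraries are shared, so r is given as a description.

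Igfbp5 (ENSMUSG00000026185, chromosome 1, 72904506 to 72921458, minus strand), the IGF-binding protein, was the other gene whose late libraries all exceeded its early ones. It measured 15.7, 15.9, 16.6 and 19.4 FPKM with DMSO and 15.4, 15.4, 18.4 and 18.0 FPKM with HU210. The 4 early libraries lay close together, and the 4 late ones were all above them. Its slope was 0.05 (95% interval 0.01 to 0.08), with an adjusted p of 0.334 in limma. This complete separation, 6 h and 8 h above 2 h and 4 h, was found in 2 of the 8 genes, beside 3.24% of all genes tested, and the opposite separation in 0 of 8, beside 2.2%.

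The adaptors differed from each other. Irs1 (ENSMUSG00000055980, chromosome 1, 82229676 to 82287991, minus strand) measured 2.23, 3.06, 3.42 and 2.75 FPKM with DMSO and 2.45, 2.77, 3.35 and 3.21 FPKM with HU210, lowest at 2 h and highest at 6 h in both treatments. Its slope was 0.05 (95% interval -0.0043 to 0.096) and its adjusted p 0.467 in limma. Irs2 (ENSMUSG00000038894, chromosome 8, 10986980 to 11008458, minus strand) measured 33.8, 37.6, 48.2 and 37.0 FPKM with DMSO and 44.5, 40.3, 45.2 and 44.5 FPKM with HU210. The DMSO values spread more widely than the HU210 values, and the treatments overlapped because the DMSO library of 6 h was the highest of all.

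Of the FoxO factors, Foxo4 (ENSMUSG00000042903, chromosome X, 98449867 to 98456212, plus strand) was the steadiest gene of the 8. It measured 9.64, 9.82, 10.7 and 9.70 FPKM with DMSO and 9.60, 9.79, 11.6 and 10.9 FPKM with HU210. Its highest library was 1.21-fold its lowest. Foxo3 (ENSMUSG00000048756, chromosome 10, 41901647 to 41996561, minus strand) measured 8.76, 9.28, 7.13 and 7.87 FPKM with DMSO and 7.27, 5.73, 9.63 and 8.76 FPKM with HU210. With DMSO the 2 h and 4 h libraries were above those of 6 h and 8 h; with HU210 the order was the opposite. The difference between the 2 slopes was 0.11 log2 units per hour (95% interval -0.029 to 0.24) and did not pass limma's interaction test, with an adjusted p of 0.958. In that test 0 of 11311 genes passed (0% called), and 325 had an unadjusted p under 0.05.

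The question of the experiment, what CB1R activation changes, was addressed by setting HU210 against DMSO. The test used looks for a difference shared by the 4 time points. A change that differs between time points counts in it as spread, so it cannot decide on such changes. Over the 4 time points, with the hour as a block, no gene of the 8 passed limma's test, all with an adjusted p of 1, and 0 of all 11311 genes did (0% called; 148 at an unadjusted p under 0.05). Irs2 had the largest mean difference of the 8, HU210 being higher by 0.16 log2 units (95% interval -0.077 to 0.40). This difference was 0.09 without the 2 h libraries, 0.25 without the 6 h libraries and 0.08 after correction for GC content and transcript length. Of the remaining 7, the point estimates lay between -0.1 for Pik3r1 and 0.06 for Foxo4, and Igfbp5, whose estimate was nearest to 0, had an interval of -0.19 to 0.17. HU210 exceeded DMSO at all 4 time points in 0 of the 8 genes, beside 4.5% of all genes, and was below DMSO at all 4 in 0 of 8, beside 3.43%.

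**Figure D3:**
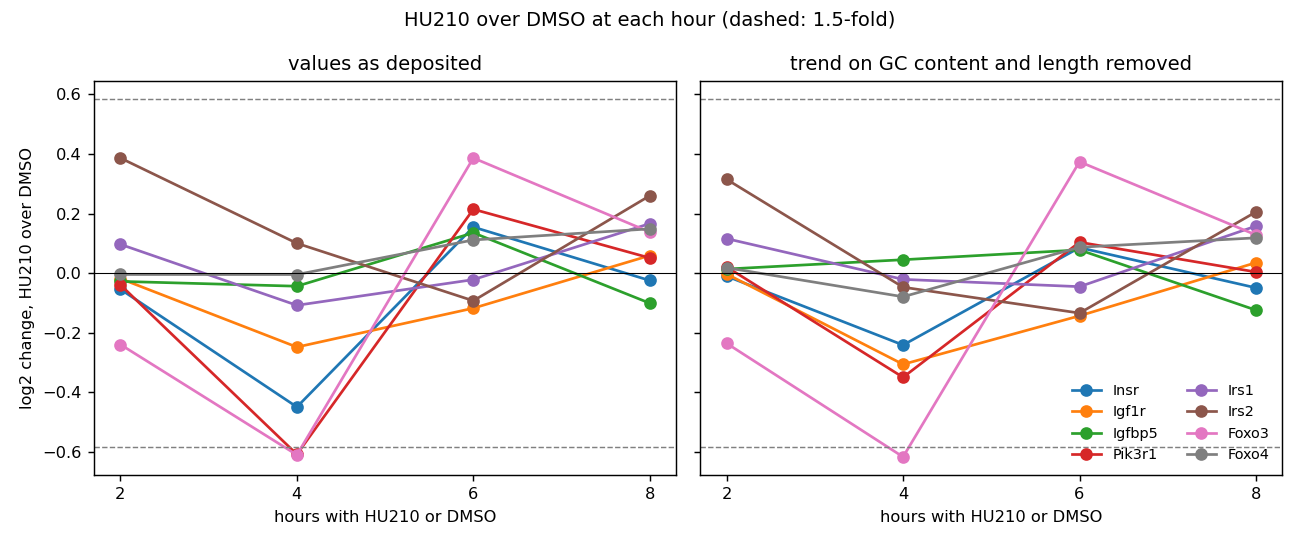
Log2 of (FPKM + 1) with HU210 over that with DMSO (vertical axis) at each time point (horizontal axis, hours) for each gene, on the left from the deposited values and on the right after correction of each library for GC content and transcript length; dashed lines mark 1.5-fold. Foxo3 and Pik3r1 reach -0.61 at 4 h on the left, and on the right Foxo3 alone stays below the line.

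At single time points a change was called by its size alone. Foxo3, Pik3r1, Insr and Irs2 passed a cutoff at some hour, and Igf1r, Irs1, Foxo4 and Igfbp5 passed neither cutoff at any hour. The share of all genes past a cutoff at any hour was not computed, so the calls are given hour by hour below. At 4 h, Foxo3 was lower with HU210, at 61.8% of its FPKM with DMSO, and Pik3r1 at 62.5%, each a log2 change of -0.61 on the log2(FPKM + 1) scale. These were the 2 of 8 past 1.5-fold (a log2 change of 0.58), beside 8.7% of all genes tested that were lower to this extent at 4 h; 0 of 8 were higher, beside 2.77%. Insr followed at -0.45 and was past the smaller cutoff of 1.3-fold with them, 3 of 8 beside 19.9% of all genes. At 6 h the sign for Foxo3 was the opposite, with 9.63 against 7.13 FPKM, a log2 change of 0.39 that passed 1.3-fold alone of the 8, beside 6.38% of all genes. That change was under 1.3-fold after correction for GC content and transcript length (0.37), with the libraries centred on their median (0.30) and against the average DMSO library (0.20).

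Irs2 was the 1 of 8 genes past 1.3-fold at 2 h, with 44.5 FPKM for HU210 against 33.8 FPKM for DMSO and a log2 change of 0.39, beside 1.49% of all genes that were higher to this extent. After correction for GC content and transcript length it was 0.31, and against the average DMSO library 0.19, both under 1.3-fold. With the libraries centred on their median it was 0.43, and with a pseudocount of 0.1 it was 0.40, both still past 1.3-fold. At 4 h, 6 h and 8 h its changes were 0.10, -0.09 and 0.26. Past 1.5-fold there were 0 of 8 in either direction at 2 h (0.504% of all genes higher, 1.45% lower), at 6 h (1.73% higher, 0.637% lower) and at 8 h (1.17% higher, 0.557% lower).

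The 4 h comparison moved with base composition. Across the 11311 genes, which are not independent replicates, the log2 change at 4 h had a Spearman correlation with the GC content of the transcript of 0.50, against 0.15 at 2 h, -0.27 at 6 h and -0.14 at 8 h. Of the 3 genes lower at 4 h, Pik3r1 (45.4% GC) and Insr (46.8%) were below the median of all genes tested and Foxo3 (53.0%) was above it. With a smooth trend on GC content and transcript length taken out of each library (GC-corrected values from here on), the change at 4 h was -0.62 for Foxo3, -0.35 for Pik3r1 and -0.24 for Insr. When all 4 DMSO libraries were averaged as the reference, it was -0.45 for Foxo3, -0.37 for Pik3r1 and -0.32 for Insr, with none past 1.5-fold. The neuroblastoma markers moved in the same comparison: 6 of the 13 were lower past 1.3-fold at 4 h, beside the 19.9% of all genes, with a median of -0.33 that was -0.18 in the GC-corrected values, and their part in the result was not tested.

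Around the 8 genes, 149 others of the pathway were listed by function, and 107 of them were tested. At 4 h, 12 of the 107 (11.2%) were lower with HU210 past 1.5-fold, beside the 8.7% given above, and 0 were higher; at 2 h and 8 h none passed in either direction. All 12 had their highest value of the 8 libraries in the DMSO library of 4 h, which also held for 80.8% of the 984 genes that were lower at 4 h. The median change of the 107 at 4 h was -0.14, that of the 8 genes was -0.18 and that of all genes was -0.08.

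Among the Akt and mTOR genes, 4 of 26 were lower past 1.5-fold at 4 h, beside the 8.7% of all genes. Rheb, the small GTPase that activates mTORC1, was at 25.4 against 51.0 FPKM, a change of -0.98, and at 6 h it was higher with HU210 by 0.58, just under 1.5-fold. Sesn3, a FoxO target that restrains mTORC1, had a change of -0.65, Tbc1d4, an Akt substrate of glucose transporter traffic, one of -0.63, and the kinase Sgk1 one of -0.63. Of these, Rheb alone stayed past 1.5-fold in the GC-corrected values, at -0.68.

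Among the FoxO regulators, 3 of 17 were lower past 1.5-fold at 4 h, beside the same 8.7% of all genes. Ywhah, a 14-3-3 protein of the group that holds phosphorylated FoxO in the cytoplasm, was at 76.6 FPKM with HU210 and 166 FPKM with DMSO, a change of -1.11, and at 6 h it was higher with HU210 by 0.67, the 1 gene of the 107 past 1.5-fold upwards there. Ywhab, another 14-3-3 gene, and Mapk8, the kinase JNK1, had changes of -0.62 and -0.70 at 4 h. Kat2b, an acetyltransferase, was the 1 gene lower at 6 h, at 9.23 against 17.4 FPKM, a change of -0.85; its DMSO library of 6 h was its highest.

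The FoxO target list had 2 of 24 lower at 4 h, close to the 8.7% of all genes, Sesn3 again and Rbl2, a cell-cycle repressor of the retinoblastoma family. Rbl2 was at 2.20 FPKM with HU210 and 7.11 FPKM with DMSO, a change of -1.34, and its other 6 libraries lay between 2.47 and 3.78 FPKM, so that the DMSO library of 4 h stood alone. Of the adaptors, Sos1 and Sos2, exchange factors that link receptors to Ras, both had a change of -0.76 at 4 h, and of the ligands and binding proteins Igf2bp3, which binds Igf2 mRNA, had one of -0.60. Rbl2, at -1.08, and Ywhah, at -0.96, stayed past 1.5-fold in the GC-corrected values, as Rheb did, and none of these 3 stayed past it against the average DMSO library. Of the 9 tested genes among the Txnip relatives, thioredoxins and MondoA factors, 0 passed 1.5-fold at any time point. Beside this, between 0.504% and 8.7% of all genes passed it at each hour and in each direction. Past 1.3-fold, 2 of the 9 were lower at 2 h, beside 3.91% of all genes, and 1 was higher at 4 h, beside 8.96%.

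**Figure D4:**
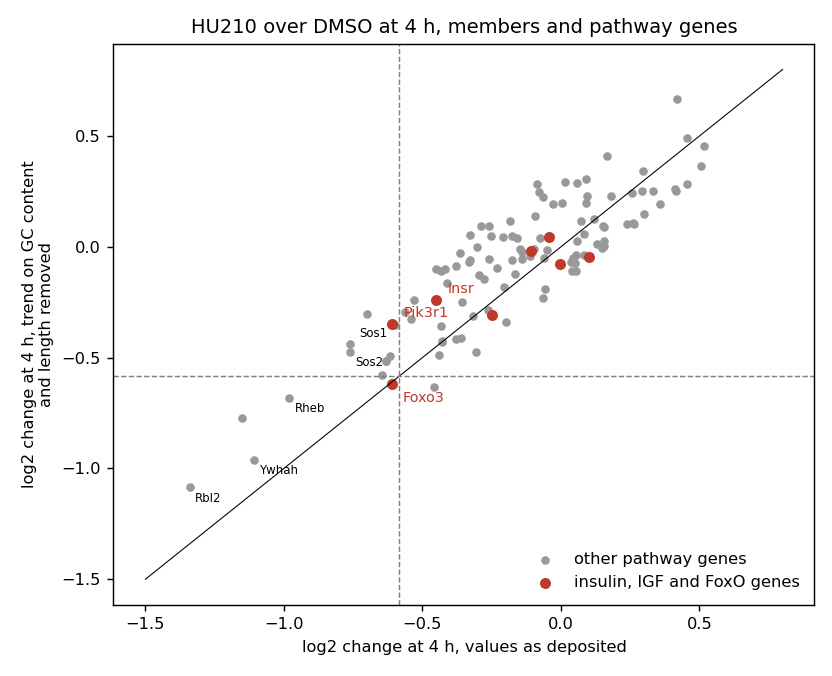
Log2 change of HU210 over DMSO at 4 h from the deposited values (horizontal axis) and from the GC-corrected values (vertical axis), for the 8 genes (red) and the 107 other pathway genes (grey); dashed lines mark 1.5-fold lower and the solid line equal values. Most grey points left of the vertical dashed line lie above the horizontal one, whereas Foxo3 lies below both.

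The time course was also read in these genes. Of the 107, 6 had all late libraries above all early ones (5.61%, beside 3.24% of all genes) and 1 had the reverse; the median slope of the 107 was 0.01 log2 units per hour. The 6, named after their values were seen, were Cblb, Crebbp, Deptor, Pik3cd, Tsc2 and Ywhag. Crebbp, an acetyltransferase that acts on FoxO, had a slope of 0.14 ± 0.022 and Deptor, an inhibitor of mTOR, one of 0.13 ± 0.025 (SE), both with an adjusted p of 0.201 in limma, near the slope of Igf1r. The 1 gene that was lower late was Usp7, a deubiquitinase of FoxO, with a slope of -0.07.

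The genes most like Igf1r over the 8 libraries, by Pearson r of log2(FPKM + 1) among the 11311, were Trerf1 (r = 0.99), Cblb (r = 0.99) and Arhgap35 (r = 0.98). In the GC-corrected values their r was 0.98, 0.88 and 0.94. Cblb, a ubiquitin ligase of receptor tyrosine kinases, was also on the list of receptors and adaptors, and measured 5.17, 6.32, 7.14 and 7.46 FPKM with DMSO and 5.31, 5.85, 7.12 and 7.47 FPKM with HU210. It was higher at each later time point in both treatments. These genes were chosen by their likeness, so no test is given. For Foxo3 the nearest were Micu3, Rad51c and Rabgap1 (r of 0.98, 0.98 and 0.97), with r of 0.86, 0.93 and 0.012 in the GC-corrected values. For Pik3r1 they were Adgrl2, Stxbp4 and Elavl1 (r of 0.99, 0.99 and 0.98), with r of 0.97, 0.85 and 0.97 in the GC-corrected values.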

How the data were processed

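Each of the 8 libraries (polyadenylated RNA, Illumina HiSeq) was aligned by the authors to mm9 with TopHat 2.0.8, Bowtie 2.1.0 and SAMtools 0.1.7, and quantified with Cufflinks (version not given in the sources used here) with multiread, fragment-bias and upper-quartile options. The deposited values are FPKM + 1 per gene for HU210 and DMSO at each hour; 1 was subtracted here. The authors also deposited fold changes, p-values and lists of differentially expressed genes, which were not used.

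Levels were analysed as log2(FPKM + 1) for the 11311 genes listed at all 4 hours with a mean of at least 1 FPKM, with limma 3.58.1 in R 4.3.3 (empirical Bayes with a trend, Benjamini-Hochberg adjustment over all of them, threshold 0.05): HU210 against DMSO with hour as a block, a linear trend over the hours with treatment as a covariate, and their interaction. The 8 libraries served as replicates of these terms. As each is a pool, p-values measure only the spread between libraries that a fit leaves over. In the test of HU210 that spread includes any effect that differs between hours. In the trend it also includes any departure from a straight line. At 1 hour there is 1 library per treatment, so no test was made and 1.5-fold (or 1.3-fold) was the cutoff. A linear local regression (span 0.3) on GC content and length, from GENCODE vM1 on mm9, gave the GC-corrected values. A stranded mRNA kit is listed among the study's materials, but whether quantification used strand is not given in the sources used here, so values of genes with an antisense partner, and of near-identical copies, are uncertain. The fits were tested on simulated data.

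The members and gene lists were chosen with earlier results of these data known. Named were the members, listed pathway genes past 1.5-fold at any hour or passing a test, and the 3 genes most correlated with each of the 3 members of widest range; others are named as chosen after their values were seen, and some listed genes are not reported here. Alternatives were a pseudocount of 0.1, no filter, median centring, the GC and length trend removed, 1.3-fold, the mean of the DMSO libraries as reference, late against early hours, no trend in the empirical Bayes step, and leaving out each hour; the late-above-early count under centring and trend removal was added after seeing the data.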

Additional observations from a re-analysis of the deposited data

How the results depend on the processing

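The 3 limma tests called 0 genes under every alternative run, including without each pair of libraries of 1 hour (0 to 0). The slope of Igf1r on the per-hour scale ranged from 0.11 without the 2 h libraries to 0.21 without the 8 h libraries, and its adjusted p from 0.14 to 1 over all alternatives. The genes past 1.5-fold numbered 221, 1297, 268 and 195 from 2 h to 8 h. With a pseudocount of 0.1 they were 344, 1735, 421 and 341 from 2 h to 8 h. At 1.3-fold they were 610, 3265, 916 and 658 over the 4 time points. Against the average DMSO library they were 232 at 4 h and 167 at 6 h, and in the GC-corrected values 851 at 4 h. Of the 8 genes, 2 passed 1.5-fold at 4 h, against 1 after GC correction and 0 with the libraries centred or against the DMSO mean; at 1.3-fold 1 passed at 2 h and 1 at 6 h. Insr joined Igf1r and Igfbp5 in having all late libraries above all early ones after GC correction (3 of 8, 3.09% of all genes), and with centring there were 2 (2.53%). The cause of these shifts was not tested. The sources give 1 pooled library per treatment and hour, so the counting error of an FPKM and the spread between cultures are unknown, and the order in which time points were prepared or sequenced cannot be told apart from time.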

Other observations

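Fcor, a corepressor of Foxo1, was not on the pathway lists and was looked up after the other values were seen. It measured 5.42, 3.16, 4.33 and 4.07 FPKM with DMSO from 2 h to 8 h and 2.90, 5.70, 4.99 and 3.42 FPKM with HU210. The log2 change was -0.72 at 2 h and 0.69 at 4 h, and after GC correction -0.51 and 0.81. The direction at 4 h was opposite to that of Foxo3, and with 1 library per treatment and time point neither change has a replicate check.

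Dok4, an adaptor of receptor tyrosine kinases named after its values were seen, measured 18.0 FPKM at 2 h and 9.94 FPKM at 8 h with DMSO, and 18.6 and 10.4 FPKM with HU210. Its slope of -0.11 ± 0.026 log2 units per hour (SE) had an adjusted p of 0.291 in limma and did not pass.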
